A study of Mus musculus with 2 samples.

Results

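Fibroblast growth factors (FGFs), epidermal growth factor (EGF) family ligands, their receptor tyrosine kinases and the feedback inhibitor Errfi1 were examined in podoplanin-positive (Pdpn+) cells sorted from mouse kidney. The genes were chosen by symbol alone: every Fgf and Fgfr symbol followed by a number, Fgfrl1, the 11 named EGF family ligands, Egfr, Erbb2 to Erbb4 and Errfi1. This gave 43 of the 55471 genes in the table, of which 22 were FGF ligands, 5 FGF receptors, 11 EGF family ligands and 4 ErbB receptors. A set of 27 had at least 20 counts in at least 1 library and is called measured below, 16 were below that minimum, and 4 of these 16 had no count in either library.

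The samples were 1 RNA-Seq library of Pdpn+ cells from control kidneys (Ctrl; Hoxb7-Cre-GFP/+) and 1 from kidneys lacking Vhlh, the mouse VHL gene, in tubule cells (VhlhKO; Hoxb7-Cre-GFP/+ with Vhlh loxP/loxP). Animals of both groups were untreated C57BL/6J males labelled as 12 weeks old, and another entry for the same samples gives 8 to 12 weeks. Both groups carry the Cre transgene by their genotype labels, but the description of the Ctrl library instead gives floxed Vhlh without naming Cre. Cre is driven by the Hoxb7 promoter, which is active in part of the renal tubule, and EpCAM+ epithelial cells were to be removed before the sort. The study describes the cells as EpCAM-, CD45-, Nephrin- and Pdpn+, whereas the sample labels name only the Pdpn antibody. Cells of several mice were pooled for each library, the sources differ on how many, and the sorted cells of both groups spent several hours in an endothelial medium with serum and growth supplement before RNA was taken. With 1 library per genotype there was no replicate check, no test was made, and every interval below is a 95% interval that covers counting error only.

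The libraries held 34465017 counts in VhlhKO and 31817115 in Ctrl, and mitochondrial genes took 3.97% and 4.01% of them. For Vhl, 975 counts were found in VhlhKO and 938 in Ctrl, and the scaled ratio was 0.966 (0.882 to 1.06). The gene counts do not separate the deleted exon, and Cre acts in tubule cells, while EpCAM+ epithelial cells were to be removed. The Vhl counts therefore do not check the genotype labels. Hoxb7 itself, whose promoter drives Cre, had 2008 and 1754 counts in the sorted cells. Of 8 lymphatic markers 4 were measured: Pdpn, the gene of the sort, had 2313 counts in VhlhKO and 1836 in Ctrl, Flt4 898 and 710, Prox1 142 and 144, and Lyve1 128 and 10. Reln and Sox18 were below the minimum, and Ccl21a and Mmrn1 were at 0 in both libraries. The pan-endothelial genes Kdr, Cdh5 and Pecam1 had 211 and 194, 105 and 95, and 66 and 55 counts. Of the same list, Egfl7 had 45 and 39 counts. Emcn had 176 and 88, for a ratio of 1.86 (1.43 to 2.43), the only interval above 1 among the 5 measured pan-endothelial genes. The summed levels in VhlhKO and Ctrl, in CPM (counts scaled to the size of the library), were 3042 and 2692 for 11 fibroblast and pericyte markers, 997 and 976 for 6 parietal epithelial markers, 755 and 506 for 8 podocyte markers, 116 and 65.7 for 8 macrophage markers, 102 and 85.0 for the 8 lymphatic markers, 58.5 and 55.0 for 8 collecting duct markers, 52.9 and 43.2 for 8 proximal tubule markers, 31.8 and 15.8 for 5 mesothelial markers and 18.5 and 15.6 for 8 pan-endothelial markers. Of 7 measured proximal tubule markers 4 were at least 2-fold lower in VhlhKO, namely Slc34a1 (0 and 51 counts), Fbp1 (0 and 42), Slc5a2 (1 and 28) and Slc5a12 (0 and 22), and 1, Aqp1, was at least 2-fold higher. Some of these sums rest mainly on 1 gene. Hoxb7 gave 58.45 CPM in VhlhKO and 54.95 CPM in Ctrl, nearly all of the collecting duct sum. No other collecting duct marker had more than 2 counts in either library. Acta2 gave 2117 and 2167 CPM, most of the fibroblast and pericyte sum. Lrp2 gave 44.5 and 32.6 CPM, most of the proximal tubule sum. Pdpn gave 67.3 and 57.5 CPM, most of the lymphatic sum, and Synpo 444 and 319 CPM, most of the podocyte sum. Of 6 measured podocyte markers 3 had an interval above 1 and 2 had one below it. The lower ones were Nphs1, at a ratio of 0.531 (0.358 to 0.779), and Cdkn1c, at 0.619 (0.461 to 0.829). The cells are therefore named below by the sort, Pdpn+ cells, and not by a cell type. Because these are bulk libraries, fewer cells of a type and less RNA per cell cannot be told apart.

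FGFs signal by binding an FGF receptor together with heparan sulfate, and endocrine FGFs use a Klotho protein as co-receptor instead. EGF family ligands are made as membrane-bound precursors, are released by ADAM proteases, and pair the 4 ErbB receptors as homo- and heterodimers. Both receptor families feed the RAS-ERK cascade, which induces its own inhibitors, including Sprouty proteins, dual-specificity phosphatases and Errfi1. In the kidney, FGF7 and FGF10 are known as stromal ligands for epithelial Fgfr2, EGF as a product of the distal nephron, and TGFA as a ligand induced in VHL-deficient renal carcinoma cells.

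In these cells the measured members were led by 1 FGF receptor, 1 ErbB receptor, 1 EGF family ligand and the inhibitor. In TPM, transcript levels corrected for gene length and library size, Errfi1 stood at 274 in VhlhKO and 265 in Ctrl, Hbegf at 130 and 182, Fgfr1 at 121 and 95.4, and Egfr at 107 and 99.7. Fgfrl1 followed at 66.3 and 71.4 TPM. The highest FGF ligands, Fgf1, Fgf18 and Fgf7, lay between 10.3 and 24.5 TPM. The order of neighbouring genes on this scale could not be set against a spread, since each level is 1 library.

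**Figure D1:**
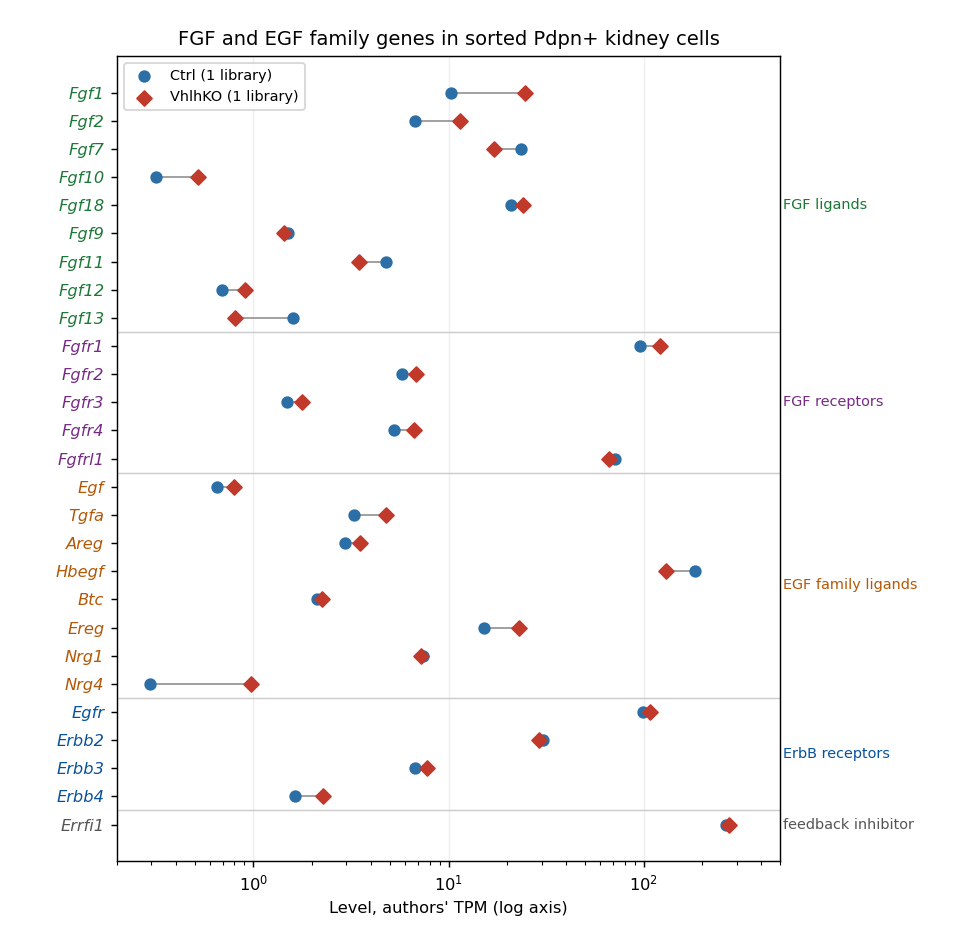
Level of each of the 27 measured members in the Ctrl library (blue circles) and the VhlhKO library (red diamonds), in the TPM values of the authors on a log axis, grouped by role. Errfi1, Hbegf, Fgfr1 and Egfr are the highest in both libraries, and the widest gaps between the libraries are at Nrg4, Fgf1 and Fgf13.

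Of the 27 measured members, 2 were at least 2-fold higher in VhlhKO (Fgf1 and Nrg4) and 0 at least 2-fold lower, where 1.71% of the 15275 measured genes were at least 2-fold higher and 0.524% at least 2-fold lower. The fold here is the log2 ratio of CPM after adding 0.5 CPM to both libraries, which pulls low genes towards 0. At 1.5-fold, 4 members were higher (Fgf1, Nrg4, Fgf2 and Ereg) and 1 was lower (Fgf13), against a background of 4.75% higher and 1.82% lower. As shares of the 27, these are 7.41% at 2-fold higher, 14.8% at 1.5-fold higher and 3.70% at 1.5-fold lower, and each rests on at most 4 genes. The median log2 ratio was 0.20 over the measured members, with a range of -0.70 to 1.24, and -0.00065 over all measured genes. Nrg4 and Fgf10 met the count minimum through the VhlhKO library alone, so their place among the measured members is not independent of being higher there.

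**Figure D2:**
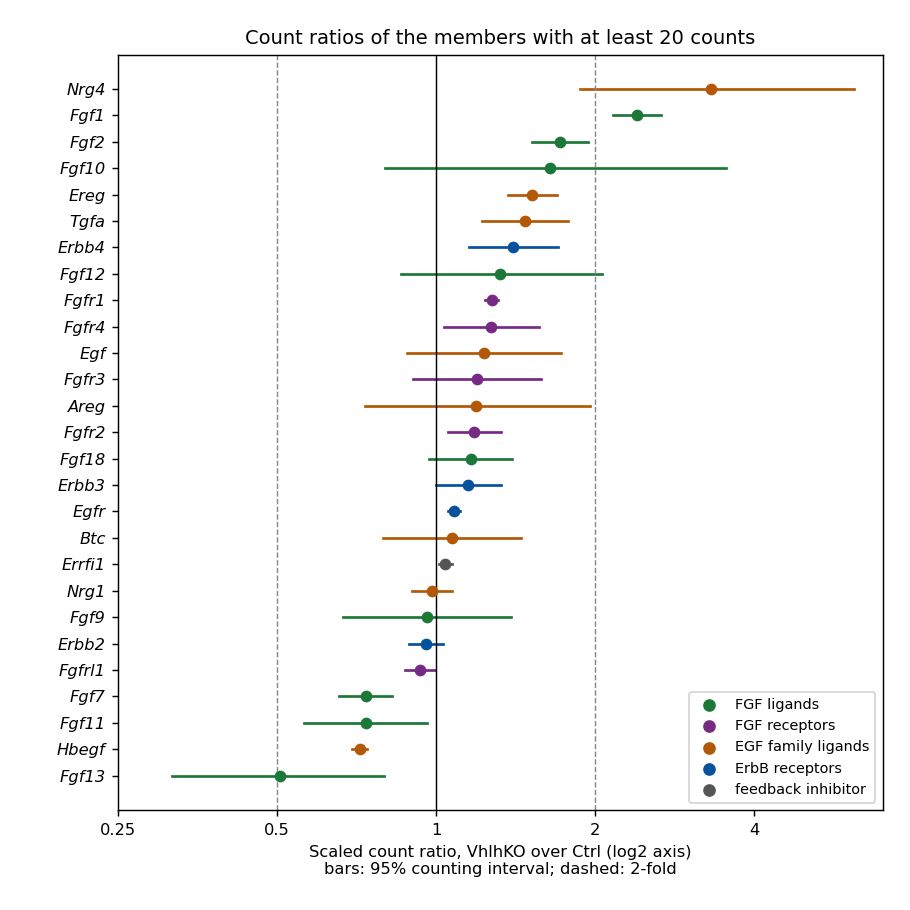
Scaled count ratio of VhlhKO over Ctrl for each of the 27 measured members, on a log2 axis, with the 95% counting interval as a bar and dashed lines at 2-fold in either direction. The interval of Fgf1 (2.16 to 2.66) lies wholly above 2-fold, that of Nrg4 reaches below it, and those of Hbegf and Fgf7 lie wholly below 1.

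The FGF1 subfamily, Fgf1 and Fgf2, gave the clearest difference among the ligands. Fgf1, a ligand that binds every FGF receptor, had 1288 counts (24.5 TPM) in VhlhKO and 499 counts (10.3 TPM) in Ctrl. Its scaled ratio was 2.40 (2.16 to 2.66) and its log2 ratio 1.24, which ranked 142 from the top among the 15275 measured genes. The gene (ENSMUSG00000036585) lies on the minus strand of chromosome 18 at 38838673 to 38929472 in GRCm38, and its exons share no base with another annotated gene.

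Fgf2, a mitogen of fibroblasts and endothelial cells, differed in the same direction. It had 748 counts (11.5 TPM) in VhlhKO and 406 counts (6.73 TPM) in Ctrl, for a ratio of 1.71 (1.51 to 1.94). The gene (chromosome 3, 37348346 to 37410108, plus strand) shares 640 of its 6782 exonic bases with Nudt6 on the opposite strand. Nudt6 had 177 counts in VhlhKO and 154 in Ctrl, fewer than Fgf2 in both libraries. The libraries were stranded, but the strand setting of the counting is not given in the sources used here, so reads of the shared bases cannot be told apart.

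The FGF7 subfamily was lower as a whole, with a summed CPM ratio of 0.762 (0.681 to 0.852) that Fgf7 carried. Fgf7, the keratinocyte growth factor, had 537 counts (17.2 TPM) in VhlhKO and 679 counts (23.5 TPM) in Ctrl, which is 1.36-fold lower (1.21 to 1.53). Fgf10, which uses the same epithelial receptor isoform, had only 23 and 13 counts and a ratio of 1.64 (0.799 to 3.53). Fgf22, which overlaps Rnf126 on the opposite strand, had 13 and 7 counts, and Fgf3 was at 0 in both libraries. The directions of Fgf1 and Fgf7 differed within the same pair of libraries. Of 10 measured markers of fibroblasts and pericytes, cells known to make Fgf7, 5 were at least 2-fold higher in VhlhKO (Pdgfra, Col1a1, Col1a2, Col3a1 and Postn) and 0 at least 2-fold lower. Over all measured genes these shares were 1.71% and 0.524%. Pdgfra, with 57 and 9 counts, met the count minimum through the VhlhKO library alone. An interval below 1 was found for 2 of the 10 markers, Cspg4 at a ratio of 0.831 (0.806 to 0.857) and Acta2 at 0.977 (0.967 to 0.987). Their part in the levels of Fgf1, Fgf2 and Fgf7 was not tested.

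Fgf18 was the most abundant FGF ligand beside Fgf1 and Fgf7 and was close in both libraries. It had 275 counts (24.1 TPM) in VhlhKO and 220 counts (20.8 TPM) in Ctrl, for a ratio of 1.16 (0.969 to 1.39). Of its subfamily, Fgf17 had 3 and 1 counts and Fgf8 none. Fgf9, a mesenchymal and epithelial ligand of kidney development, had 64 and 62 counts with a ratio of 0.959 (0.666 to 1.38), and its relatives Fgf16 and Fgf20 had 1 count in each library. In the FGF4 subfamily, Fgf5 had 6 counts in VhlhKO and 0 in Ctrl, and Fgf4 and Fgf6 had none. A count of 0 allows up to 3 counts, or 0.0873 CPM in VhlhKO and 0.0940 CPM in Ctrl.

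The endocrine FGFs were close to undetected. Fgf21, a metabolic hormone of the liver and of stressed cells, had 19 counts in VhlhKO and 8 in Ctrl, with a ratio of 2.21 and an interval from 0.922 to 5.83 that contains 1. Fgf15, the intestinal regulator of bile acid synthesis, had 1 and 0 counts. Fgf23, the bone-derived phosphate hormone, had 0 and 3 counts. Of their co-receptors, Kl had 27 counts in VhlhKO and 48 in Ctrl, 1.91-fold lower (1.17 to 3.19), and Klb 0 and 1. Kl is a tubule gene in the kidney. Proximal tubule markers went both ways, with 4 at least 2-fold lower in VhlhKO and 1 at least 2-fold higher. Over all measured genes these shares were 0.524% and 1.71%. The summed CPM of the proximal tubule markers was 52.9 in VhlhKO and 43.2 in Ctrl, and their part in the level of Kl was not tested.

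The intracellular FGFs, which are not secreted and bind voltage-gated sodium channels in neurons and muscle, summed to 187 counts in VhlhKO and 225 in Ctrl. Fgf13 had 31 counts (0.802 TPM) in VhlhKO and 57 counts (1.59 TPM) in Ctrl, 1.98-fold lower (1.26 to 3.17). With 0.5 CPM added its log2 ratio was -0.70, so it passed 1.5-fold and not 2-fold, and it was the member with the lowest ratio. Fgf11 had 102 and 129 counts and was 1.36-fold lower (1.04 to 1.78). Fgf12 had 54 and 38 counts with a ratio of 1.32 (0.856 to 2.06), and Fgf14 had 0 and 1.

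Summed over the 18 secreted FGF ligands, the level was 82.5 TPM in VhlhKO and 64.8 TPM in Ctrl, and the summed CPM ratio was 1.46 (1.37 to 1.54). The make-up of that sum also differed between the libraries. Fgf1 held 29.7% of it in VhlhKO and 15.8% in Ctrl, while Fgf7 held 20.8% and 36.2%. Fgf18 held 29.2% and 32.1%, and Fgf2 13.9% and 10.4%.

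**Figure D3:**
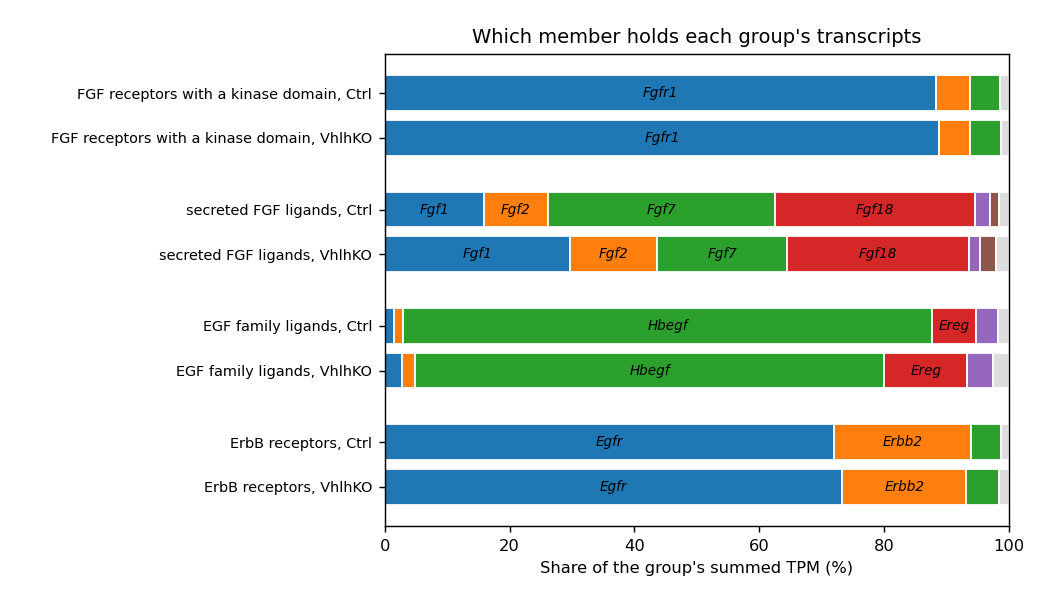
Share of the summed TPM held by each member (%) in 4 groups, with 1 stacked bar per library and the segments under 2% in both libraries joined in grey. The unlabelled coloured segments are Fgfr2 and Fgfr4, Fgf9 and Fgf21, Tgfa, Areg and Nrg1, and Erbb3, in that order by group. The Fgf1 segment is wider and the Fgf7 segment narrower in VhlhKO, Hbegf takes 75.2% in VhlhKO and 84.8% in Ctrl, and the receptor bars look alike.

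All 4 FGF receptors with a kinase domain had a ratio above 1, with an interval above 1 for 3 of them, and Fgfr1 made up most of their transcripts. Over all measured genes, 49.8% had a log2 ratio above 0 and 19.0% an interval above 1. Fgfr1, the main receptor of mesenchymal cells, had 11497 counts (121 TPM) in VhlhKO and 8384 counts (95.4 TPM) in Ctrl, for a ratio of 1.27 (1.24 to 1.31). It held 88.8% of the summed TPM of Fgfr1 to Fgfr4 in VhlhKO and 88.4% in Ctrl. The table sums transcripts over each gene, so the epithelial and mesenchymal splice forms of a receptor cannot be told apart.

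The other receptors were far lower. Fgfr2, the receptor of Fgf7 and Fgf10 in its epithelial splice form, had 677 counts (6.82 TPM) and 533 counts (5.80 TPM), for a ratio of 1.18 (1.05 to 1.32). It shares 314 of its 10328 exonic bases with Ctbp2 on the same strand, a gene with 2615 and 2505 counts, so part of its count is uncertain. Fgfr4 had 227 counts (6.67 TPM) and 166 counts (5.27 TPM), for a ratio of 1.27 (1.04 to 1.56). Fgfr3 had 122 and 95 counts and a ratio of 1.19 (0.905 to 1.58). The sum over these 4 receptors gave a ratio of 1.27 (1.23 to 1.30), which is below 1.5-fold and largely the value of Fgfr1. Fgfrl1, which lacks the kinase domain, had 1772 counts in VhlhKO and 1768 in Ctrl, for a ratio of 0.931 (0.871 to 0.995).

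Among the EGF family ligands Hbegf was dominant in both libraries and lower in VhlhKO. Hbegf, the heparin-binding ligand of Egfr and Erbb4, had 6039 counts (130 TPM) in VhlhKO and 7841 counts (182 TPM) in Ctrl. This is 1.40-fold lower (1.35 to 1.45), a log2 ratio of -0.48, which ranked 422 from the bottom of the 15275 measured genes. The gene lies on the minus strand of chromosome 18 at 36504927 to 36515805 in GRCm38. The summed CPM of all 11 ligands was accordingly lower, with a ratio of 0.815 (0.792 to 0.839). Of the 8 measured ligands 6 had a ratio above 1, where 49.8% of all measured genes did. An interval above 1 was found for 3, Tgfa, Ereg and Nrg4, where 19.0% of all measured genes had one. Nrg4 met the count minimum through the VhlhKO library alone.

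Ereg and Tgfa lay on the other side from Hbegf. Ereg, epiregulin, which binds the same pair of receptors as Hbegf, had 911 counts (22.96 TPM) in VhlhKO and 557 counts (15.2 TPM) in Ctrl, for a ratio of 1.52 (1.37 to 1.69). Its share of the summed ligand TPM was 13.3% in VhlhKO and 7.06% in Ctrl, against 75.2% and 84.8% for Hbegf. The gene (chromosome 5, 91074622 to 91093646, plus strand) shares 141 of its 4128 exonic bases with the antisense gene Gm19610, which had 54 and 46 counts. Tgfa, which binds Egfr, had 299 counts (4.79 TPM) and 189 counts (3.27 TPM), for a ratio of 1.47 (1.22 to 1.77) that falls just short of 1.5-fold.

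Btc, Areg and Egf were low and could not be separated between the libraries at this depth. Btc, betacellulin, had 98 and 85 counts with a ratio of 1.07 (0.793 to 1.45). Areg, amphiregulin, had 41 and 32 counts with a ratio of 1.19 (0.732 to 1.95). Egf had 86 counts (0.794 TPM) in VhlhKO and 65 counts (0.648 TPM) in Ctrl, for a ratio of 1.23 (0.880 to 1.72), and Epgn had 0 and 5 counts. Of 8 markers of the thick ascending limb and distal convoluted tubule, the segments known to make Egf, Umod, Pvalb, Kcnj1 and Cldn16 were at 0 in both libraries. Slc12a1 had 24 and 18 counts and Slc12a3 had 3 and 8. The 8 markers summed to 17.2 CPM in VhlhKO and 27.9 CPM in Ctrl, nearly all of it Trpm6 (563 and 862 counts).

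Macrophages are a known source of Hbegf and Ereg in other tissues. Of 8 macrophage markers 6 had a ratio above 1 and 2 below it, although the described gate left out CD45+ cells. At 1.5-fold, 5 were higher and 0 lower, against 4.75% and 1.82% of all measured genes. Lyz2 had 2007 counts in VhlhKO and 522 in Ctrl, C1qa 389 and 178, and the leukocyte gene Ptprc 24 and 12. The 2 markers below 1 were Csf1r, with 279 and 307 counts and a ratio of 0.844 (0.715 to 0.996), and Cd14, with 665 and 687 counts. The part of macrophages in the levels of Ereg and Hbegf was not tested.

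The neuregulins were low apart from Nrg1. Nrg1, the ligand of Erbb3 and Erbb4 and the only abundant neuregulin, had 1073 counts (7.23 TPM) in VhlhKO and 1017 counts (7.41 TPM) in Ctrl, for a ratio of 0.980 (0.899 to 1.07). Nrg4, which binds Erbb4, had 57 counts (0.976 TPM) in VhlhKO and 16 counts (0.296 TPM) in Ctrl. Its ratio of 3.31 (1.87 to 6.18) was the highest of the measured members, but its level stayed below 1 TPM in both libraries and its log2 ratio with 0.5 CPM added was 1.11. Nrg2 had 7 and 12 counts and Nrg3 2 and 0. The Nrg4 gene (ENSMUSG00000032311, chromosome 9, 55220222 to 55326844, minus strand) shares 368 of its 6075 exonic bases with Fbxo22 on the opposite strand. Fbxo22 had 1893 counts in VhlhKO and 1721 in Ctrl, far more than Nrg4, so with the strand setting unknown the Nrg4 counts are uncertain.

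The 2 most abundant ErbB receptors, Egfr and Erbb2, were close in the pair of libraries. Egfr, the receptor of 7 of the ligands, had 11670 counts (107 TPM) in VhlhKO and 10046 counts (99.7 TPM) in Ctrl, for a ratio of 1.08 (1.05 to 1.11). It held 73.3% and 72.0% of the summed ErbB TPM. Erbb2, the partner receptor without a ligand of its own, had 1453 counts (29.0 TPM) and 1412 counts (30.5 TPM), for a ratio of 0.956 (0.888 to 1.03).

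Erbb3 and Erbb4, the neuregulin receptors, were the minor ErbB genes. Erbb3, whose kinase is impaired, had 447 and 361 counts and a ratio of 1.15 (0.999 to 1.33). Erbb4 had 271 counts (2.28 TPM) and 180 counts (1.64 TPM), the highest ratio of the 4 at 1.40 (1.15 to 1.70). Errfi1, which binds the Egfr kinase and blocks it, had 9450 and 8443 counts and a ratio of 1.04 (1.01 to 1.07).

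Promoter sequence was examined because VHL loss is known to stabilize hypoxia-inducible factors, whose binding core is ACGTG or GCGTG. RefSeq windows on GRCm38.p6, reaching 250 bases upstream of a transcript start, were matched by symbol for 31 of the 43 members. Some had several starts, giving 40 windows. The 12 members without a window include Fgf1, Hbegf, Ereg, Fgfr1, Nrg1 and Erbb3, so the shares below do not cover them. The core, searched on both strands with overlapping matches allowed, was in 19 of these 40 windows (47.5%), which belong to 17 genes, and in 38.6% of all 32851 windows. The AP-1 site TGACTCA was in 1 of the 40 (2.5%) and in 4.46% of all windows. A match is a description of letters and not a site of binding.

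A pair of windows is shown, that of the member with the highest ratio, Nrg4, and that of the main FGF ligand that was lower, Fgf7, both 5′ to 3′ on the strand of the gene with matches to the core in capitals. Nrg4 (chr9:55283655-55283875, minus strand, GRCm38.p6) covers 250 to 30 bases before 1 of its RefSeq starts and has 3 matches, beginning 222, 112 and 76 bases before that start. By the gene coordinates given above (55220222 to 55326844), this Nrg4 window lies inside the gene. Fgf7 (chr2:126034408-126034657, plus strand, GRCm38.p6) covers the 250 bases before its start and has 1 match, 188 bases before it.
Nrg4: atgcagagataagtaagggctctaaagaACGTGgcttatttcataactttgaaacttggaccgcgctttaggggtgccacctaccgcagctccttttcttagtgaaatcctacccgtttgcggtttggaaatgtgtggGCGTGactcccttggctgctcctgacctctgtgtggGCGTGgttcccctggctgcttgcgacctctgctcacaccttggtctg
Fgf7: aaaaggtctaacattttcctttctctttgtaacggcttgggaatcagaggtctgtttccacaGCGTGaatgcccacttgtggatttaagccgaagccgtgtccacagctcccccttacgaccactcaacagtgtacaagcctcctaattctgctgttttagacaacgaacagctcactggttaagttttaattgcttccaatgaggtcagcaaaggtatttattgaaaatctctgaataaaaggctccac
Both windows hold the core letters, as do 38.6% of all windows, and a link between the core and the direction of a gene was not tested.

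The genes around the receptors showed no member past 2-fold in either direction in any of 5 lists. Over all measured genes, 1.71% were at least 2-fold higher and 0.524% at least 2-fold lower. Such shares leave few genes to be found in lists of this size. Of 12 measured FGF co-receptors, binding proteins and adaptors, 1 was at least 1.5-fold higher and 1 at least 1.5-fold lower, with a median log2 ratio of -0.01. The higher one was Flrt2, a membrane protein that binds FGF receptors, with 5124 counts in VhlhKO and 2990 in Ctrl and a ratio of 1.59 (1.52 to 1.67), and the lower one was Kl. Flrt3 and Flrt1 of the same family had ratios of 0.734 (0.661 to 0.814) and 0.685 (0.549 to 0.853). The adaptors Frs2, Grb2, Gab1, Shc1, Sos1 and Ptpn11 lay between ratios of 0.962 and 1.17.

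The FGF feedback inhibitors lay on both sides of 1. Of 8 measured Sprouty, Spred and Sef genes, 0 passed 1.5-fold, 6 had a ratio below 1, and the median log2 ratio was -0.12. Intervals lay below 1 for 4 of them and above 1 for 2, where 17.3% of all measured genes had an interval below 1 and 19.0% one above it. Il17rd, which encodes Sef, had 6115 counts in VhlhKO and 7629 in Ctrl, for a ratio of 0.745 (0.720 to 0.770). Spry1 had 9128 and 10708 counts and a ratio of 0.792 (0.770 to 0.815). The other genes with an interval below 1 were Spry2, at a ratio of 0.871, and Spred3, at 0.944, whose interval ends just below 1. Spred1 and Spred2, inhibitors that act on RAS and RAF, were at 1.06 (1.01 to 1.10) and 1.09 (1.04 to 1.14).

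The 11 proteases and trafficking factors that release EGF family ligands all stayed within 1.5-fold, with a median log2 ratio of 0.18. Adam8 and Adam9 were the highest with an interval above 1, at ratios of 1.34 (1.08 to 1.66) and 1.26 (1.22 to 1.30). Adam17, the main sheddase of Hbegf, Tgfa, Areg and Ereg, had 1875 and 1533 counts and a ratio of 1.14 (1.06 to 1.22).

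Of 18 measured ErbB inhibitors and adaptors, 1 was at least 1.5-fold higher and 1 at least 1.5-fold lower, around a median log2 ratio of 0.02. Cblb, a ubiquitin ligase that acts on activated receptors, had 5453 counts in VhlhKO and 3188 in Ctrl, for a ratio of 1.59 (1.52 to 1.66). Grb14, an adaptor that binds several receptor kinases, had 309 and 447 counts and a ratio of 0.642 (0.554 to 0.744). Lrig1, which promotes the degradation of ErbB receptors, had a ratio of 1.37 (1.23 to 1.52), and Eps8, an Egfr substrate, one of 0.761 (0.695 to 0.832).

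The 22 ERK-responsive genes were split, with 12 ratios above 1 and 10 below and a median log2 ratio of 0.09. At least 1.5-fold higher were 2 genes, Ccnd1 and Egr2, and 0 were lower by that fold. Ccnd1, cyclin D1, had 44330 counts in VhlhKO and 25812 in Ctrl, for a ratio of 1.60 (1.57 to 1.62), and the zinc finger factor Egr2 had 205 and 112, for a ratio of 1.70 (1.34 to 2.16). Dusp4, a phosphatase of ERK, was at 1.36 (1.29 to 1.43) and Phlda1 at 0.812 (0.780 to 0.845). Dusp6 and Etv4, which report FGF and ERK activity in many tissues, were at 1.10 (1.07 to 1.13) and 0.906 (0.855 to 0.961). The background for all 5 lists is the 1003 of 15275 measured genes past 1.5-fold in either direction.

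**Figure D4:**
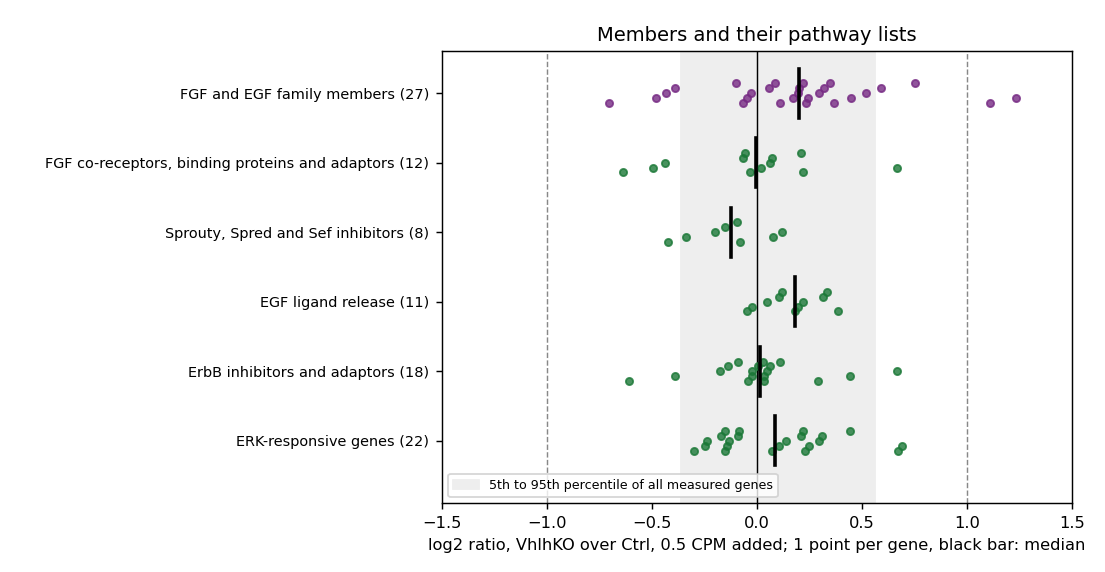
Log2 ratio of VhlhKO over Ctrl, with 0.5 CPM added, for the 27 measured members (purple) and the measured genes of 5 pathway lists (green), with 1 point per gene, the median as a black bar and dashed lines at 2-fold. The grey band holds the 5th to the 95th percentile of all measured genes (-0.36 to 0.56), and only Fgf1 and Nrg4 lie past a dashed line.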

How the data were processed

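RNA of sorted Pdpn+ kidney cells was sequenced from poly(A)-selected, stranded libraries, 1 per genotype. The deposited table holds, for each gene, the whole-number read counts and the TPM values of the authors for both libraries. The notes of the submitters name cutadapt, STAR, featureCounts of Subread and DESeq2 on mm10 (GRCm38), without versions, annotation or strand setting (not given in the sources used here). Columns with the authors' own fold changes and p-values compare the libraries and were not used. TPM served for levels between genes. Counts were scaled by TMM factors (edgeR 4.0.16, R 4.3.3), with no count model fitted. Ratios carry exact conditional Clopper-Pearson 95% intervals, which cover counting error only, since PCR reads without molecular identifiers are not independent molecules. Genes that reached 20 counts in either library were called past 2-fold or 1.5-fold on log2(CPM + 0.5), where 0.5 CPM equals 17.2 counts in VhlhKO and 16.0 in Ctrl. All 43 genes found by the symbol rule are accounted for, and of each pathway list the genes past a fold and up to 4 with the largest ratios are named, with a few others of known role chosen after their values were seen. Members, pathway lists and marker lists were chosen with earlier results of these data known. Coordinates and exon overlaps come from GENCODE M21 (GRCm38). Its exonic lengths gave TPM per count within 2% of the median for 98.8% of 13177 genes. Promoter windows come from RefSeq (GRCm38.p6). The ratio and interval code was tested on simulated data. Alternatives were other scalings (total counts, the size factors of DESeq2 1.42.0, or TPM as deposited), other added values and other count minimums. No replicate exists, so the spread between mice or pools was not measured.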

Additional observations from a re-analysis of the deposited data

How the results depend on the processing

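No replicate could be left out, since each genotype had 1 library. No paired analysis was possible because the genotypes share a single replicate number and no test was made. The count of members at least 2-fold higher, 2 with 0.5 CPM added, was 1 with the authors' TPM and 0.5 TPM added, 1 with 2 CPM added and 1 with at least 100 counts. Fgf1 stayed past 2-fold in each of these and Nrg4 did not. The count at least 1.5-fold higher, 4, was 2 with 2 CPM added (Fgf1 and Fgf2), and the count at least 1.5-fold lower, 1 (Fgf13), was 0 with 2 CPM added and 0 with at least 100 counts. Ereg, close to the threshold, was below 1.5-fold with total-count scaling and with TPM, and Fgf10 was past it with 0.1 CPM added. All 208 log2 ratios of measured members under the alternatives kept their sign. A changed count minimum leaves a ratio as it is, and a value added to both libraries cannot change its sign. Only the other scalings and TPM could therefore have changed a sign. No ratio shifted by more than the width of its counting interval on the log2 scale. With 2 CPM added and with TPM, the log2 ratio of Nrg4 was 0.55 and 0.89, below the lower end of its counting interval (a ratio of 1.87). The median of the members moved by less than 0.1, and no scaling moved the median of all genes by more than 0.011. Over all genes, 261 were at least 2-fold higher, 404 with 0.1 CPM added, 115 with 2 CPM added and 179 with at least 100 counts. The counts at least 2-fold lower were 80, 139, 35 and 46. Depth limits what can be said of Egf, Areg, Btc, Fgf9, Fgf10 and Fgf12, whose intervals contain 1.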
